A study of Chlamydomonas reinhardtii with 12 samples.

Results

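Transcript levels were compared between 2 sets of parental cultures of the green alga Chlamydomonas reinhardtii that carry the same labels for line, medium and light but different titles. The first set has the titles X3404VE, X3404VE_1 and X3404VE_2, and the second has the titles WT1, WT2 and WT3. These 6 libraries are part of a series of 12, whose other 6 come from phytoene desaturase knockouts. Both sets are labelled as wild-type vegetative cells of line CC-3403 in liquid culture. They were kept for 4 weeks in the dark at 25 °C in TAP, an acetate medium, with 10 µg/mL arginine, and were not sorted. The titles of the first set hold another strain number than the labelled line, which the sources used here do not explain. Both sets are named by these titles throughout, since the submitters' separate library names use WT1 to WT6 for all 6. To leave aside a difference in how the sets were counted, an identifier was kept when it had at least 1 count in each of the 6 libraries and a mean of at least 5 CPM (counts per 1000000 counts of a library) in both sets. This kept 7280 of 17744 identifiers.

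Chlamydomonas can grow in darkness on acetate. Acetate is turned into acetyl-CoA, passes through the glyoxylate cycle and feeds respiration and the synthesis of sugars and starch, while the plastid keeps its chlorophyll and thylakoids. Genes of the light-harvesting antenna, the photosystems and the Calvin-Benson cycle serve photosynthesis, and their transcripts are known to follow light, carbon supply and the cell's physiological state. RNA of a whole culture was measured, so fewer cells of one state and less RNA per cell cannot be told apart in any of the values below. Gene symbols stand after the identifier and come, with the roles given, from lists written from general knowledge of the published nomenclature. The files and the RefSeq table used here hold no symbols, so this pairing could not be checked.

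The libraries differed widely in depth. Totals ran from 14204824 to 35992976 counts in the X3404VE libraries and from 1393032 to 11768160 in the WT libraries, so that a single count stood for 0.0278 to 0.0704 CPM and for 0.085 to 0.718 CPM. One library stood apart within its own set. Over the kept identifiers X3404VE_1 and X3404VE_2 had a correlation of 0.962 in log2 CPM and 4.86% of identifiers differed over 2-fold between them. Library X3404VE had correlations of only 0.739 and 0.726 with these, and 36.2% and 37.3% of identifiers differed over 2-fold. Its correlation with WT1, a library of the other set, was 0.861. Correlations among WT1, WT2 and WT3 were 0.848 to 0.893. These correlations are across identifiers, which are not independent replicates. The labels call the 6 parental samples independent and say nothing more of their cultures, so every p-value here measures the spread between these libraries, which may be partly technical.

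The sets also differed in which identifiers were counted at all, which the rule was made to leave aside. A group of 441 identifiers had 0 counts in all 3 X3404VE libraries while it was counted in all 3 WT libraries at a mean of 5 CPM or more. Of these, 434 (98.4%) have 2 or more transcripts in RefSeq, against 8.63% of all identifiers matched to RefSeq. Only 3 identifiers showed the reverse, and none of them has 2 or more transcripts. Among 736 identifiers with 2 or more transcripts and at least 5 CPM in the WT set, 660 (89.7%) lay under 2% of their WT level in the X3404VE set. Among 7905 identifiers with 1 transcript, 32 (0.405%) did. The gene for plastid glutamine synthetase, Cre12.g530650 (GLN2), had 2.39, 1.78 and 1.62 CPM in X3404VE, X3404VE_1 and X3404VE_2, against 1365, 1664 and 1413 CPM in WT1, WT2 and WT3. For the mitochondrial ADP/ATP carrier, Cre09.g386650 (ANT1), the values were 0.0332, 0 and 0 CPM in the X3404VE libraries and 2125, 2514 and 2517 CPM in the WT libraries. Both have 2 RefSeq transcripts and both were left out by the rule. Of the 7280 kept identifiers, 21 (0.288%) have 2 or more.

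Over the kept identifiers, 49 were higher and 110 lower in X3404VE than in WT at a Benjamini-Hochberg adjusted p under 0.05 in edgeR's quasi-likelihood test, which is what "called" means below. That is 2.18% of the identifiers tested in both directions, with 0.673% higher and 1.51% lower. At an unadjusted p under 0.05 there were 1660 (22.8%). In CPM over library totals, the 3 X3404VE libraries all lay above the 3 WT libraries for 19.5% of identifiers and all below them for 10.7%. The median log2 fold change of all identifiers was 0.05 with TMM scaling and 0.22 with library totals alone. Counts of separated identifiers, here and in the lists below, thus use the scale on which the X3404VE set stands higher. The calls rest on few libraries. With X3404VE_1, X3404VE_2, WT2 or WT3 left out, 0 identifiers were called higher and 6, 8, 6 or 5 lower by edgeR, while 1021, 1112, 1059 and 1201 identifiers had an unadjusted p under 0.05. With X3404VE left out, 618 of 7148 identifiers were called higher and 807 lower, of which 49 and 106 were called in the full comparison. DESeq2 called 414 higher and 489 lower on the same 7280 identifiers, and limma-voom 40 and 125. Every identifier called higher had a log2 fold change of at least 1.65, and every one called lower fell by at least 1.66.

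**Figure D1:**
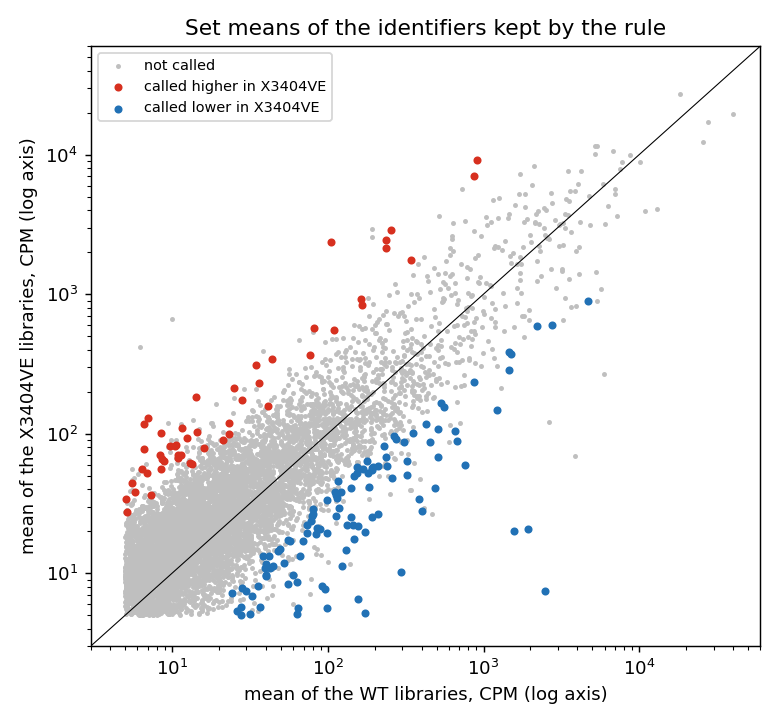
Mean level of each of the 7280 kept identifiers in the 3 X3404VE libraries (vertical, CPM, log axis) against its mean in the 3 WT libraries (horizontal, CPM, log axis), with the line of equal means. The 49 identifiers called higher lie above the cloud with a median log2 fold change of 2.52, and the 110 called lower lie below it with a median of -2.38.

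Genes of 17 lists were followed by name. The lists hold 210 identifiers, of which 209 were in the file and 178 passed the rule. Among those 178, 5 were called higher and 2 lower, 3.93% against 2.18% over all identifiers tested. The 5 that rose were a cytochrome b6f subunit (PETM), the ribosome-bound protein CBLP, Rubisco activase (RCA1), the pyrenoid-periphery protein LCIB and an isoamylase (ISA1). The 2 that fell were a phosphate acetyltransferase (PAT2) and an A-type cyclin (CYCA1). All 7 calls were lost when X3404VE_1, X3404VE_2, WT2 or WT3 was left out, with the same direction and adjusted p of up to 0.25 in edgeR, and those of RCA1, ISA1 and PAT2 also without WT1. With library totals in place of TMM factors PETM, CBLP and CYCA1 were called, and with all 12 libraries in the fit none of the 7 was. The other 31 listed identifiers in the file were not tested, and 8 of them have 2 or more RefSeq transcripts. Counts per list below stand beside those over all identifiers. In edgeR 22.8% of all had an unadjusted p under 0.05, and without X3404VE 618 of 7148 were called higher and 807 lower. DESeq2 called 414 of 7280 higher and 489 lower. A list count near these shares is no result about the list.

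The antenna genes showed the widest differences of any list within the X3404VE set, and 15 of the 18 tested overlapped between the sets. All X3404VE libraries lay above the WT libraries for 1 and below them for 2, against 19.5% and 10.7% of all identifiers. Light-harvesting proteins bind chlorophyll and carotenoids and pass excitation energy to the reaction centres, LHCA proteins at photosystem I and LHCBM and LHCB proteins at photosystem II. Of 21 listed identifiers 18 were tested, and edgeR called 0 of them. None had an unadjusted p under 0.05 in edgeR, and DESeq2 and limma-voom also called 0, with 2 and 6 at an unadjusted p under 0.05. Their median log2 fold change was -0.26, with 6 positive and 12 negative.

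The major antenna transcript Cre01.g066917 (LHCBM1) reached 36532 CPM in X3404VE and stood at 30.1 and 45.0 CPM in X3404VE_1 and X3404VE_2, against 28194, 25923 and 22849 CPM in WT1, WT2 and WT3. X3404VE lay above every WT library and its 2 partners lay far below them, so the sets overlapped. The log2 fold change between the sets was -1.15 ± 1.86 (SE, 3 against 3 libraries) with an adjusted p of 0.751 in edgeR. For Cre06.g283950 (LHCBM4) the X3404VE libraries had 2179, 1.08 and 1.20 CPM and the WT libraries 234, 311 and 257 CPM. The photosystem I antenna gene Cre06.g283050 (LHCA1) had 7321, 50.9 and 56.5 CPM in the X3404VE libraries, against 3237, 2591 and 2072 CPM in the WT libraries. In both, X3404VE was the highest of all 6 libraries and X3404VE_1 and X3404VE_2 were the lowest. These 3 genes were chosen after their values were seen, as extremes of the list. Some LHCBM genes are near-identical, and the authors discarded reads with more than 1 mapping place, so the split between such copies is uncertain. Which of the LHCBM values this touches was not tested.

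The 4 antenna members with the smallest p were LHCB4, LHCB7, LHCBM5 and LHCA3. Cre17.g720250 (LHCB4), which links the outer antenna to photosystem II, had 8425, 1707 and 1718 CPM in the X3404VE libraries and 8122, 12040 and 12301 CPM in the WT libraries, a log2 fold change of -1.66 ± 0.76 with an adjusted p of 0.231 in edgeR. Its X3404VE value fell between WT1 and WT2 and its other values were about equal to each other. Cre03.g156900 (LHCBM5) had 2334, 61.3 and 56.4 CPM in the X3404VE libraries, all below the 3362, 4436 and 4051 CPM of the WT libraries, with a log2 fold change of -2.39 ± 1.30 and an adjusted p of 0.300 in edgeR. For Cre11.g467573 (LHCA3) the values were 5145, 307 and 255 CPM in the X3404VE libraries, against 1025, 417 and 388 CPM in the WT libraries, and the log2 fold change was 1.60 ± 1.09 with an adjusted p of 0.408 in edgeR. Cre02.g110750 (LHCB7) was the exception of the list. It was low and even, with 27.6, 25.4 and 24.6 CPM in the X3404VE libraries, and those were all above the 10.96, 3.35 and 14.4 CPM of the WT libraries. Its log2 fold change was 1.17 ± 0.55 with an adjusted p of 0.243 in edgeR.

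**Figure D2:**
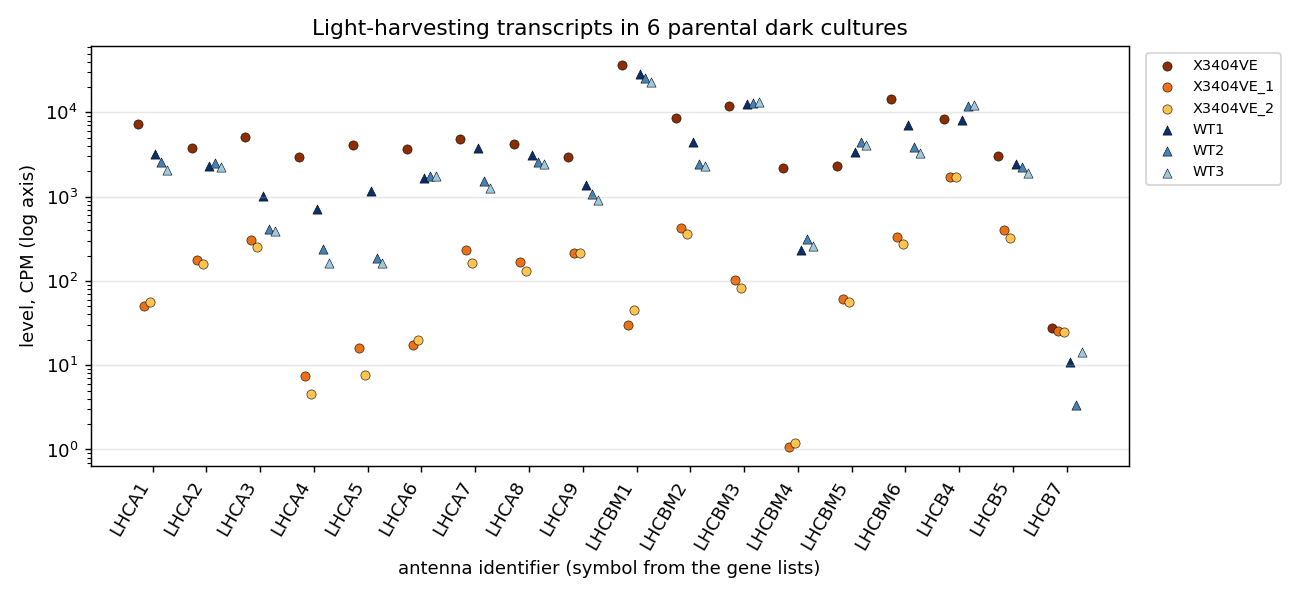
Level of 18 antenna identifiers (CPM, log axis) in each X3404VE library (circles) and each WT library (triangles), with 1 point per library. For 17 of the 18, X3404VE_1 and X3404VE_2 both lie below every WT library, while X3404VE lies above every WT library for 15.

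Across the list, the highest X3404VE library was a median of 37.0 times the lowest, against 1.50 times within the WT set. Over all identifiers tested the 2 medians were 1.97 and 2.04. Library X3404VE was the highest of its set in 18 of 18 antenna genes, against 31.4% of all identifiers, and lay above every WT library in 15, against 33.6% of all. X3404VE_1 and X3404VE_2 were both below every WT library in 17 of 18, against 17.3% of all. Antenna transcripts took 12.7%, 0.427% and 0.391% of counts in X3404VE, X3404VE_1 and X3404VE_2, against 8.49%, 7.72% and 7.17% in WT1, WT2 and WT3. With X3404VE left out, 16 of 17 antenna genes were called lower by edgeR with a median log2 fold change of -4.38. With X3404VE as the only library of its set, 5 of 20 were called higher with a median of 1.19, a fit in which that lone library is assumed to vary like the WT set. Of the 3 untested members, Cre12.g548950 (LHCBM7) had 8137, 0.222 and 0 CPM in the X3404VE libraries and 7226, 6090 and 6240 CPM in the WT libraries.

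Photosystem and electron transport subunits were split in the same way but by less, with exceptions among genes of cytochrome b6f and of the ATP synthase. Of 23 tested, 1 was called higher and 0 lower by edgeR, with 4 at an unadjusted p under 0.05 and a median log2 fold change of -0.14. Over all identifiers, 22.8% had such a p. DESeq2 called 4 and limma-voom 2, all higher. With X3404VE left out, edgeR called 4 higher and 16 lower, with a median of -1.59. The highest X3404VE library was a median of 5.08 times the lowest, against 1.61 times within the WT set, and X3404VE was the highest of its set in 21 of 23. Cre07.g330250 (PSAH), a photosystem I subunit chosen here as an example after its values were seen, had 2934, 213 and 198 CPM in the X3404VE libraries and 1810, 1501 and 1637 CPM in the WT libraries.

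Cre12.g546150 (PETM), a small subunit of the cytochrome b6f complex that links the photosystems, had 2996, 2518 and 3122 CPM in X3404VE, X3404VE_1 and X3404VE_2, against 428, 139 and 195 CPM in WT1, WT2 and WT3. The 3 X3404VE libraries were close to each other here and far above the WT libraries. PETM rose by 3.27 ± 0.51 on the log2 scale with an adjusted p of 0.0225 in edgeR. The 3 listed subunit genes of the chloroplast ATP synthase, which makes ATP from the proton gradient across the thylakoid, had all X3404VE libraries above all WT libraries. Cre11.g481450 (ATPG) had 1005, 905 and 1047 CPM in the X3404VE libraries and 309, 204 and 226 CPM in the WT libraries, a log2 fold change of 1.72 ± 0.39 with an adjusted p of 0.0543 in edgeR. Cre11.g467569 (ATPD) had 884, 432 and 457 CPM in the X3404VE libraries and 181, 166 and 131 CPM in the WT libraries, a log2 fold change of 1.67 ± 0.47 with an adjusted p of 0.0938 in edgeR. The Rieske protein gene of cytochrome b6f, Cre11.g467689 (PETC), had 1615, 493 and 460 CPM in the X3404VE libraries, against 264, 178 and 146 CPM in the WT libraries, and a log2 fold change of 1.96 ± 0.62 with an adjusted p of 0.112 in edgeR. None of these 3 overlapped between sets and none passed the threshold. Over the list, 5 of 23 genes had all X3404VE libraries above all WT libraries, against 19.5% of all identifiers. PSBR and PSBX, 2 of 23, had them all below, against 10.7%. These counts are near the shares of all identifiers and are no result about the list. Cre12.g558900 (PETO), also listed with cytochrome b6f, had 580, 159 and 148 CPM in the X3404VE libraries and 375, 284 and 233 CPM in the WT libraries, which overlapped.

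Calvin-Benson cycle genes differed in both directions. Of 13 tested, 1 was called higher and 0 lower by edgeR, with 3 at an unadjusted p under 0.05 and a median log2 fold change of 0.04. Over all identifiers, 22.8% had such a p. After leaving out X3404VE, 1 was called higher and 3 lower. Cre04.g229300 (RCA1), which encodes Rubisco activase and so keeps Rubisco able to fix CO2, had 643, 2956 and 2815 CPM in X3404VE, X3404VE_1 and X3404VE_2, against 319, 205 and 187 CPM in WT1, WT2 and WT3. Here X3404VE was the lowest of its set, in the opposite order to the antenna genes, and still above every WT library. RCA1 rose by 2.82 ± 0.56 on the log2 scale with an adjusted p of 0.0406 in edgeR. With X3404VE as the only library of its set the log2 fold change was 1.35 with an adjusted p of 0.11 in edgeR.

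Cre12.g510650 (FBP1), fructose bisphosphatase, had 324, 480 and 476 CPM in the X3404VE libraries, all below the 880, 873 and 744 CPM of the WT libraries, with a log2 fold change of -1.29 ± 0.37 and an adjusted p of 0.0968 in edgeR. Sedoheptulose bisphosphatase, Cre03.g185550 (SEBP1), had 827, 449 and 535 CPM in the X3404VE libraries and 288, 83.8 and 70.4 CPM in the WT libraries, with a log2 fold change of 1.88 ± 0.57 and an adjusted p of 0.104 in edgeR. The sets did not overlap in either gene, in opposite directions. Of the 13 tested, 3 had all X3404VE libraries above and 3 all below the WT libraries, against 19.5% and 10.7% of all identifiers. Of the Rubisco small subunit genes, Cre02.g120100 (RBCS1) had 3244, 439 and 474 CPM in the X3404VE libraries, all below the 3635, 4549 and 4143 CPM of the WT libraries. The other copy, Cre02.g120150 (RBCS2), had 37820, 20096 and 23191 CPM in the X3404VE libraries and 17673, 16007 and 21033 CPM in the WT libraries, which overlapped. The log2 fold changes of these copies were -1.73 ± 0.84 and 0.30 ± 0.52, with adjusted p of 0.251 and 0.770 in edgeR. The copies are near-identical, so their separate values are uncertain.

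The carbon concentrating mechanism raises CO2 around Rubisco in the pyrenoid, and 3 genes of its pyrenoid part stood higher in the X3404VE set. Of 13 listed identifiers 6 were tested, and 1 was called higher and 0 lower by edgeR, with 4 at an unadjusted p under 0.05. The median log2 fold change was 0.66. Without X3404VE, 3 were called higher and 1 lower. Cre10.g452800 (LCIB), a protein around the pyrenoid that recaptures CO2, had 219, 451 and 435 CPM in the X3404VE libraries, against 116, 57.4 and 56.7 CPM in the WT libraries. It rose by 1.96 ± 0.40 on the log2 scale with an adjusted p of 0.0422 in edgeR. Cre10.g436550 (EPYC1), the linker that gathers Rubisco into the pyrenoid, had 1137, 2506 and 1926 CPM in the X3404VE libraries and 467, 440 and 339 CPM in the WT libraries, a log2 fold change of 1.83 ± 0.41 with an adjusted p of 0.0547 in edgeR. The partner of LCIB, Cre06.g307500 (LCIC), had 150, 186 and 187 CPM in the X3404VE libraries, against 81.2, 46.9 and 45.9 CPM in the WT libraries, with a log2 fold change of 1.30 ± 0.34 and an adjusted p of 0.0781 in edgeR. In all 3, X3404VE was the lowest of its set and lay above WT1, the highest of the WT set. All X3404VE libraries thus lay above all WT libraries in 3 of the 6 tested, against 19.5% of all identifiers.

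The thylakoid carbonic anhydrase gene Cre09.g415700 (CAH3) went the other way, with 141, 138 and 162 CPM in the X3404VE libraries, all below the 183, 317 and 307 CPM of the WT libraries. Its log2 fold change was -1.21 ± 0.41 with an adjusted p of 0.128 in edgeR. The 6 tested genes took 0.168%, 0.330% and 0.272% of counts in the X3404VE libraries, against 0.0871%, 0.0888% and 0.0757% in the WT libraries. An exact two-sided permutation test over the 20 arrangements of 3 against 3 gave its smallest possible p of 0.1 for this difference, or 0.34 adjusted over 17 lists. The other 7 members did not pass the rule. Cre04.g223100 (CAH1), the periplasmic carbonic anhydrase, was detected only in X3404VE, at 4.29 CPM, and was 0 in the other 5. Cre03.g162800 (LCI1) was 0 in all 6.

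**Figure D3:**
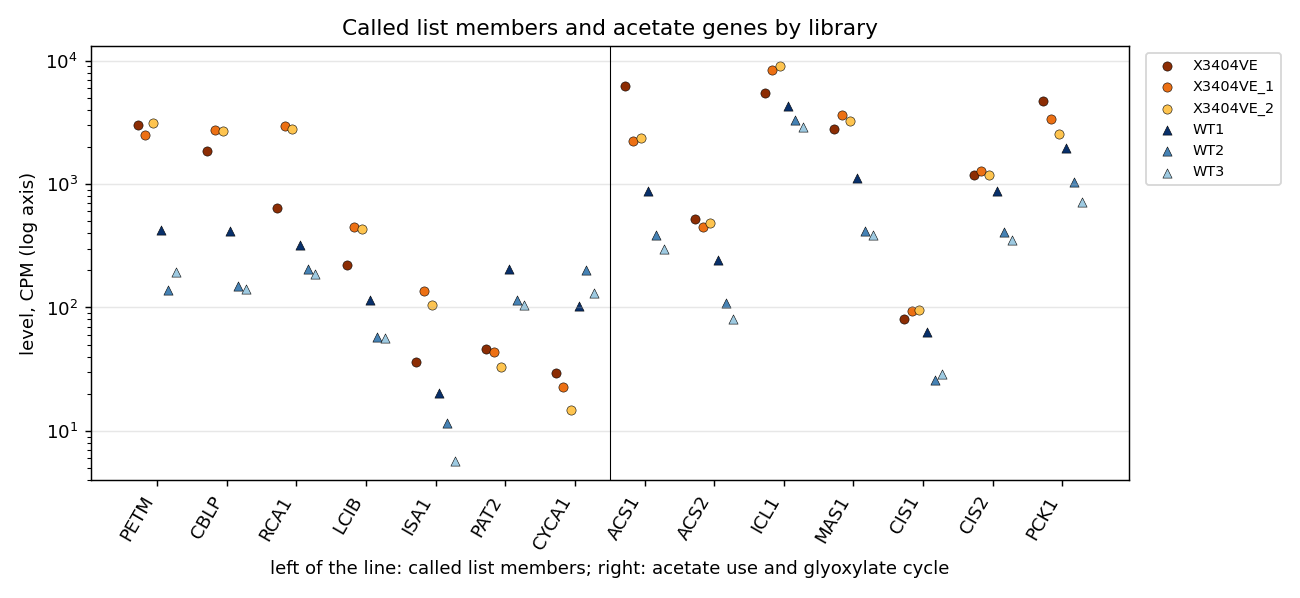
Level of the 7 called list members and of the 7 acetate and glyoxylate genes (CPM, log axis) in each X3404VE library (circles) and each WT library (triangles), with 1 point per library. The sets do not overlap in any of the 7 acetate and glyoxylate genes. They also do not overlap in the 7 called members, which were shown because they were called. All 49 identifiers called higher and all 110 called lower have separate sets. RCA1 has the widest spread among the called members within the X3404VE set, from 643 to 2956 CPM.

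Genes for acetate use stood higher in every X3404VE library than in every WT library. This held for all 7 listed genes, against 19.5% of all identifiers, and the list had a median log2 fold change of 1.31, against 0.05 over all. With edgeR 0 of the 7 were called and 5 had an unadjusted p under 0.05, while DESeq2 called 3 higher and limma-voom 1. In edgeR without X3404VE, 3 were called higher. Cre07.g353450 (ACS1), an acetyl-CoA synthetase that activates acetate, had 6184, 2251 and 2365 CPM in X3404VE, X3404VE_1 and X3404VE_2, against 875, 385 and 299 CPM in WT1, WT2 and WT3. The log2 fold change was 2.65 ± 0.64 with an adjusted p of 0.0661 in edgeR. A related gene, Cre01.g055408 (ACS2), had 522, 451 and 480 CPM in the X3404VE libraries, against 244, 108 and 80.4 CPM in the WT libraries, with a log2 fold change of 1.53 ± 0.44 and an adjusted p of 0.0954 in edgeR. Both genes were lowest in WT3 and highest in X3404VE.

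Malate synthase and isocitrate lyase are the enzymes that set the glyoxylate cycle apart from the respiratory one. Cre03.g144807 (MAS1), malate synthase, had 2795, 3642 and 3231 CPM in the X3404VE libraries, against 1120, 414 and 388 CPM in the WT libraries, a log2 fold change of 2.09 ± 0.48 with an adjusted p of 0.0561 in edgeR. With WT1 left out its adjusted p was 0.041 in edgeR, and with any of X3404VE_1, X3404VE_2, WT2 or WT3 left out it lay between 0.16 and 0.29. Cre06.g282800 (ICL1), isocitrate lyase, had 5440, 8471 and 9104 CPM in the X3404VE libraries and 4292, 3336 and 2897 CPM in the WT libraries, a smaller log2 fold change of 0.82 ± 0.41 with an adjusted p of 0.270 in edgeR. Phosphoenolpyruvate carboxykinase, which begins the path from the cycle to sugars, is encoded by Cre02.g141400 (PCK1). It had 4724, 3342 and 2529 CPM in the X3404VE libraries and 1977, 1033 and 713 CPM in the WT libraries, a log2 fold change of 1.31 ± 0.51 with an adjusted p of 0.162 in edgeR. The list took 2.09%, 1.95% and 1.90% of counts in the X3404VE libraries, against 0.945%, 0.571% and 0.476% in the WT libraries. These shares were even in the X3404VE set, in which antenna shares were not. The exact permutation test gave p = 0.1, the smallest it can, and 0.34 adjusted over the lists.

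**Figure D4:**
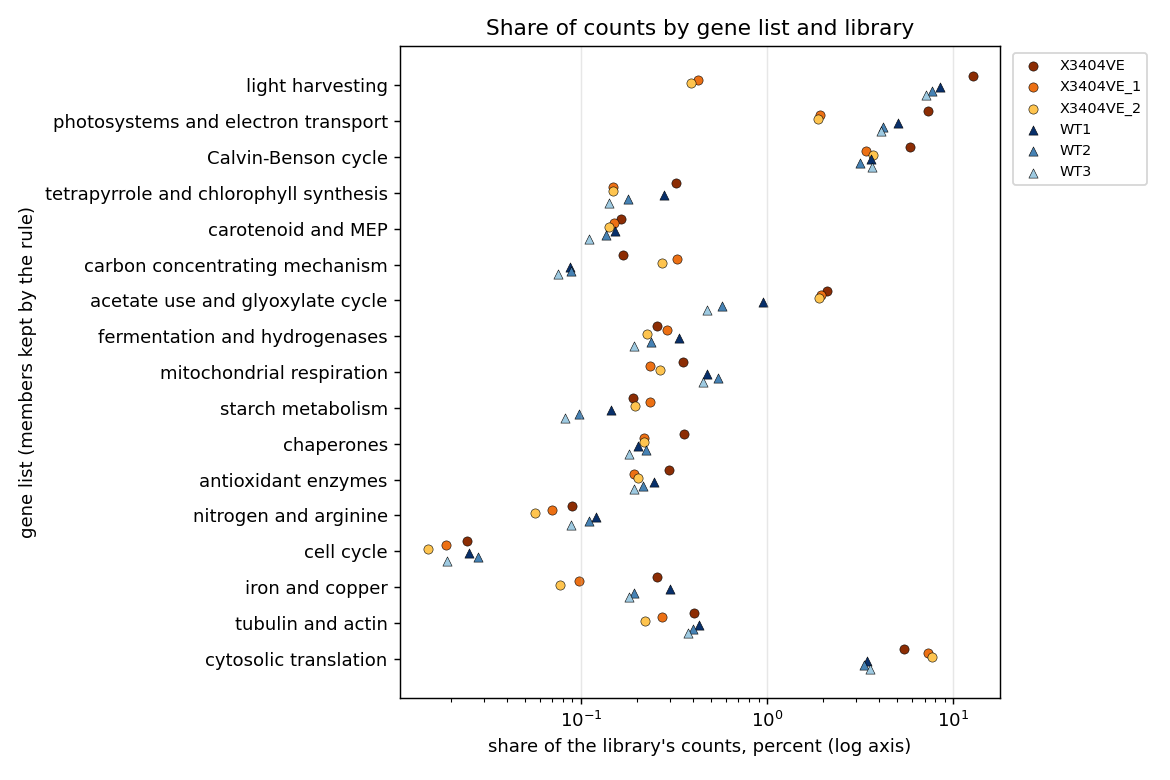
Percent of the counts of each library that fell on the tested members of the 17 gene lists (log axis), with 1 circle per X3404VE library and 1 triangle per WT library. The X3404VE libraries lie together and above the WT libraries for acetate use (1.90% to 2.09% against 0.476% to 0.945%), while for light harvesting 1 of them is at 12.7% and the others at 0.427% and 0.391%.

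Starch genes showed positive log2 fold changes in 8 of 8 tested members, against 52.3% of all identifiers, with a median of 0.51, and 1 was called higher and 0 lower by edgeR, or 3 and 0 with X3404VE left out. Cre03.g155001 (ISA1), an isoamylase that trims branches during the building of the starch granule, had 36.5, 136 and 105 CPM in the X3404VE libraries, against 20.2, 11.6 and 5.74 CPM in the WT libraries. It rose by 2.54 ± 0.53 on the log2 scale with an adjusted p of 0.0441 in edgeR, and limma-voom did not call it, with an adjusted p of 0.11. The X3404VE library lay nearer to WT1 than to X3404VE_1 in CPM, and with X3404VE as the only library of its set the log2 fold change was 1.44. Cre06.g307150 (AMYB1), a beta-amylase that degrades starch, had 127, 391 and 373 CPM in the X3404VE libraries and 89.1, 70.4 and 55.3 CPM in the WT libraries, a log2 fold change of 1.71 ± 0.43 with an adjusted p of 0.0704 in edgeR. Cre17.g721500 (GBS1), the granule-bound starch synthase, had 357, 469 and 376 CPM in the X3404VE libraries and 172, 135 and 86.1 CPM in the WT libraries, a log2 fold change of 1.34 ± 0.36 with an adjusted p of 0.0881 in edgeR. These 3 of the 8 tested genes had all X3404VE libraries above all WT libraries, against 19.5% of all identifiers. Genes of starch building and of starch breakdown were both among them.

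Fermentation genes showed 1 call. Cre09.g396650 (PAT2) encodes phosphate acetyltransferase, which works with acetate kinase between acetyl-CoA and acetate. It had 46.1, 43.8 and 33.2 CPM in the X3404VE libraries, all below the 204, 116 and 104 CPM of the WT libraries. PAT2 fell by 2.03 on the log2 scale (SE 0.38) with an adjusted p of 0.0351 in edgeR. Its neighbour in the numbering, Cre09.g396700 (ACK1), an acetate kinase, overlapped between sets, with 16.3, 57.3 and 51.8 CPM in the X3404VE libraries and 39.9, 45.5 and 38.8 CPM in the WT libraries. The hydrogenase Cre09.g396600 (HYDA2) had 23.5, 148 and 139 CPM in the X3404VE libraries and 90.6, 73.8 and 58.9 CPM in the WT libraries, so X3404VE lay below and its 2 partners above the WT set. Those 2 genes were chosen after their values were seen. Over the 9 tested members the median log2 fold change was -0.04, and without X3404VE 3 were called lower.

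Respiratory chain genes stood lower in the X3404VE set where the sets separated, and edgeR called 0 of 7 with 3 at an unadjusted p under 0.05. DESeq2 called 3 lower and limma-voom 0, and edgeR without X3404VE called 4 lower. The median log2 fold change was -0.55, with 2 positive and 5 negative. Of the positive ones, Cre17.g698000 (ATP2) had a log2 fold change of 0.94 ± 0.60 with an adjusted p of 0.377 in edgeR. Cre04.g221700 (COX3) had 0.27 ± 0.44 with an adjusted p of 0.753 in edgeR. The sets overlapped in both genes. Cre01.g049500 (COX2B), a nuclear-encoded part of cytochrome oxidase subunit II, had 873, 526 and 703 CPM in the X3404VE libraries and 1314, 2174 and 1982 CPM in the WT libraries, a log2 fold change of -1.68 ± 0.49 with an adjusted p of 0.0971 in edgeR. The other part of the same subunit, Cre03.g154350 (COX2A), had 599, 650 and 647 CPM in the X3404VE libraries, against 1148, 1369 and 1062 CPM in the WT libraries, with a log2 fold change of -1.23 ± 0.39 and an adjusted p of 0.115 in edgeR. Cre15.g638500 (CYC1), a cytochrome of the chain, had 677, 512 and 569 CPM in the X3404VE libraries and 1428, 1195 and 912 CPM in the WT libraries, a log2 fold change of -1.27 ± 0.41 with an adjusted p of 0.117 in edgeR. In these 3 genes all X3404VE libraries lay below all WT libraries, against 10.7% of all identifiers. The list took 0.354%, 0.236% and 0.264% of counts in the X3404VE libraries, against 0.473%, 0.547% and 0.454% in the WT libraries, with p = 0.1 in the exact permutation test and 0.34 adjusted over the lists.

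Cytosolic translation genes, those of CBLP and of ribosomal proteins, stood mostly higher in the X3404VE set. Of 17 tested, 13 had every X3404VE library above every WT library, against 19.5% of all identifiers, and the median log2 fold change was 1.13, against 0.05 over all. With edgeR 1 was called higher and 0 lower, and 9 had an unadjusted p under 0.05, while DESeq2 called 8 and limma-voom 3, and edgeR without X3404VE called 7. The called gene was Cre06.g278222 (CBLP), the alga's homologue of the ribosome-bound scaffold RACK1 and a common reference transcript in Chlamydomonas studies. It had 1866, 2761 and 2707 CPM in X3404VE, X3404VE_1 and X3404VE_2, against 419, 148 and 141 CPM in WT1, WT2 and WT3. CBLP rose by 3.12 ± 0.50 on the log2 scale with an adjusted p of 0.0243 in edgeR. Every X3404VE library was far above WT1, the highest of the WT libraries.

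Cre12.g529651 (RPL7A), a protein of the large ribosomal subunit, had 2386, 2713 and 2715 CPM in the X3404VE libraries and 1019, 465 and 403 CPM in the WT libraries, a log2 fold change of 1.81 ± 0.44 with an adjusted p of 0.0696 in edgeR. Also of the large subunit, Cre09.g388200 (RPL10) had 3811, 4406 and 5864 CPM in the X3404VE libraries, against 1855, 849 and 767 CPM in the WT libraries, with a log2 fold change of 1.76 ± 0.46 and an adjusted p of 0.0783 in edgeR. Cre02.g102250 (RPS3), of the small subunit, had 3539, 5928 and 6138 CPM in the X3404VE libraries and 2201, 1423 and 1481 CPM in the WT libraries, a log2 fold change of 1.30 ± 0.42 with an adjusted p of 0.116 in edgeR. WT1 was the highest of its set and X3404VE the lowest of its own in each of the 3. Of the large subunit, Cre12.g494050 (RPL9) overlapped between sets. It had 5053, 11927 and 12934 CPM in the X3404VE libraries and 6278, 9240 and 10564 CPM in the WT libraries. Its log2 fold change was negative, at -0.20 ± 0.50 with an adjusted p of 0.840 in edgeR. Its mean CPM was higher in the X3404VE set, at 9971 against 8694. The list took 5.46%, 7.29% and 7.67% of counts in the X3404VE libraries, against 3.46%, 3.30% and 3.55% in the WT libraries, with p = 0.1 in the exact permutation test and 0.34 adjusted over the lists. The elongation factor gene Cre06.g263450 (EEF1A1) was not tested. It has 2 RefSeq transcripts and had 0 counts in the X3404VE libraries, against 2131, 1642 and 1388 CPM in the WT libraries.

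Pigment synthesis genes gave 0 calls in edgeR in either list. Of 18 tetrapyrrole and chlorophyll genes 2 had an unadjusted p under 0.05, and DESeq2 called 1 higher and 1 lower and limma-voom 0. With X3404VE left out, edgeR called 7 of the 18 lower, with a median log2 fold change of -0.87. Cre12.g510800 (CHLI2), a subunit gene of magnesium chelatase at the entry to the chlorophyll branch, had 55.8, 26.8 and 27.5 CPM in the X3404VE libraries, all below the 101, 137 and 117 CPM of the WT libraries. Its log2 fold change was -1.94 ± 0.47 with an adjusted p of 0.0696 in edgeR. Cre07.g342150 (GTR1), glutamyl-tRNA reductase at the start of the pathway, had 252, 154 and 121 CPM in the X3404VE libraries, all above the 90.3, 36.9 and 27.3 CPM of the WT libraries, with a log2 fold change of 1.59 ± 0.51 and an adjusted p of 0.115 in edgeR. X3404VE was the highest of its set in 17 of the 18, as it was for the antenna.

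Of 13 carotenoid and isoprenoid precursor genes 1 had an unadjusted p under 0.05 in edgeR, DESeq2 called 1 higher and limma-voom 0. Without X3404VE, edgeR called 1 of 10 higher. The gene with the low p was Cre02.g095092 (PSY1), phytoene synthase, the first committed enzyme of carotenoid synthesis. It had 85.1, 88.6 and 80.3 CPM in the X3404VE libraries, against 36.7, 20.5 and 7.18 CPM in the WT libraries, a log2 fold change of 1.73 ± 0.48 with an adjusted p of 0.0914 in edgeR. Phytoene desaturase, Cre12.g509650 (PDS1), the gene knocked out elsewhere in the series, had 113, 66.6 and 46.6 CPM in the X3404VE libraries and 74.9, 21.6 and 47.4 CPM in the WT libraries. These overlapped, and the log2 fold change was 0.44 ± 0.53 with an adjusted p of 0.658 in edgeR. With X3404VE left out it was -0.18.

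Of the genes of nitrogen and arginine metabolism 5 of 11 were tested and edgeR called 0, with 3 at an unadjusted p under 0.05. DESeq2 called 1 higher and 1 lower and limma-voom 0, and edgeR without X3404VE called 2 lower. Cre01.g021251 (ARG7), argininosuccinate lyase of arginine synthesis, had 24.4, 5.81 and 7.96 CPM in the X3404VE libraries and 10.9, 10.1 and 7.90 CPM in the WT libraries. X3404VE was the highest of the 6 and X3404VE_1 the lowest, and the log2 fold change was 0.22 ± 0.65 with an adjusted p of 0.868 in edgeR. Cre09.g416050 (AGS1), another enzyme of arginine synthesis, had 134, 41.1 and 49.8 CPM in the X3404VE libraries, all below the 170, 180 and 182 CPM of the WT libraries, with a log2 fold change of -1.46 ± 0.55 and an adjusted p of 0.155 in edgeR. A glutamine synthetase gene, Cre02.g113200 (GLN1), had 377, 336 and 263 CPM in the X3404VE libraries and 714, 757 and 538 CPM in the WT libraries, a log2 fold change of -1.31 ± 0.40 with an adjusted p of 0.106 in edgeR. The third gene with a low p, Cre12.g514050 (GSF1), went the other way. It had 90.8, 60.5 and 50.1 CPM in the X3404VE libraries, all above the 34.3, 8.94 and 3.59 CPM of the WT libraries. Its log2 fold change was 1.90 ± 0.65 with an adjusted p of 0.128 in edgeR, and its WT3 value rests on 5 counts.

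Among cell cycle regulators 4 of 6 were tested and 1 was called lower, or 2 with X3404VE left out. Cre03.g207900 (CYCA1), an A-type cyclin, had 29.7, 22.7 and 14.6 CPM in the X3404VE libraries, all below the 102, 202 and 131 CPM of the WT libraries. CYCA1 fell by 2.98 on the log2 scale (SE 0.49) with an adjusted p of 0.0258 in edgeR. The mitotic kinase gene Cre08.g372550 (CDKB1) had 96.2, 5.50 and 12.1 CPM in the X3404VE libraries and 48.0, 29.4 and 23.0 CPM in the WT libraries. Its X3404VE value was above the WT set and its other values below it, with a log2 fold change of 0.09 ± 0.93 and an adjusted p of 0.967 in edgeR. The direction for CDKB1 depended on the setting.

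Chaperone and antioxidant genes gave 0 calls in edgeR, with 4 of 13 and 1 of 8 at an unadjusted p under 0.05, and limma-voom called 0 in both. DESeq2 called 2 chaperones higher and 0 antioxidant genes. Without X3404VE, edgeR called 2 chaperones higher and 2 lower, and 1 antioxidant gene higher and 3 lower. Over all identifiers that fit called 618 of 7148 higher and 807 lower. The chaperones had a median log2 fold change of 0.70 and the antioxidant genes one of 0.24. Cre14.g617450 (HSP22E), a small heat shock protein, had 94.1, 140 and 131 CPM in the X3404VE libraries, all above the 25.7, 58.5 and 40.2 CPM of the WT libraries. The log2 fold change was 1.20 ± 0.42 with an adjusted p of 0.132 in edgeR. HSP22E was not the chaperone gene with the smallest p. Cre08.g358562 (CPN20) and Cre14.g617400 (HSP22F) had smaller p, and both stood higher, by 1.20 ± 0.35 and 1.82 ± 0.53 on the log2 scale. Their adjusted p were 0.0981 and 0.0987 in edgeR. Of the 13 chaperones, 3 had negative log2 fold changes. Another small heat shock protein gene, Cre07.g318800 (HSP22A), has a single RefSeq transcript and was left out for its low level in the X3404VE set, with 2.49, 1.69 and 1.76 CPM, against 104, 123 and 94.8 CPM in the WT libraries. It and Cre03.g145787 (HSP22C), with 2.26, 19.4 and 23.2 CPM in the X3404VE libraries and 0.170, 0 and 0 CPM in the WT libraries, were named after their values were seen and have no test.

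Iron and copper genes, of which 4 of 5 were tested, and tubulin and actin genes, of which 5 of 6 were tested, gave 0 calls in edgeR, DESeq2 and limma-voom, with 2 and 1 at an unadjusted p under 0.05 in edgeR. Without X3404VE, edgeR called 1 iron and copper gene higher and 1 lower, and 3 tubulin and actin genes lower. Cre12.g546550 (FEA1), a secreted iron-assimilation protein, had 1882, 43.6 and 46.3 CPM in the X3404VE libraries and 2508, 1721 and 1685 CPM in the WT libraries. X3404VE lay among the WT values and its 2 partners far below. The log2 fold change was -1.65 ± 1.27 with an adjusted p of 0.467 in edgeR. The copper-deficiency cytochrome gene Cre16.g651050 (CYC6) had 34.1 CPM in X3404VE and 0 counts in the other 5 libraries. The ferroxidase gene Cre09.g393150 (FOX1) had 575, 747 and 573 CPM in the X3404VE libraries, all above the 399, 134 and 87.6 CPM of the WT libraries, with a log2 fold change of 1.40 ± 0.51 and an adjusted p of 0.144 in edgeR. All 5 tubulin and actin genes had negative log2 fold changes, from -1.04 to -0.19, and 1 of them, Cre04.g216850 (TUA2), did not overlap between the sets. Tubulin copies are near-identical and their separate values are uncertain.

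The called identifiers outside the lists with the smallest p, for each direction, were as follows. Cre04.g214503 had 17.0, 23.6 and 21.6 CPM in the X3404VE libraries, against 1435, 1865 and 2479 CPM in the WT libraries. It fell by 6.90 on the log2 scale (SE 0.57) with an adjusted p of 0.00133 in edgeR. It has 2 RefSeq transcripts, and 7 of the 110 identifiers called lower have 2 or more, against 21 of the 7280 kept (0.288%). Whether its fall comes from the difference in counting between the sets was not tested. Cre07.g329650, with 1 RefSeq transcript, had 4.69, 5.95 and 8.87 CPM in the X3404VE libraries, against 168, 172 and 128 CPM in the WT libraries. It fell by 4.91 on the log2 scale (SE 0.40) with the same adjusted p in edgeR, 0.00133. These 2 calls held with each single library left out. In the other direction, Cre13.g590500 had 9654, 8878 and 8823 CPM in the X3404VE libraries and 978, 928 and 802 CPM in the WT libraries, and rose by 3.05 ± 0.45 on the log2 scale. Cre12.g530900 had 160, 182 and 180 CPM in the X3404VE libraries, against 36.3, 26.8 and 20.8 CPM in the WT libraries, and rose by 2.35 ± 0.34 on the log2 scale. Both had an adjusted p of 0.0200 in edgeR and lost the call with X3404VE_1, X3404VE_2, WT2 or WT3 left out, at adjusted p of 0.066 to 0.20.

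The called identifiers were then summed in the knockout libraries, which took no part in the comparison. These came from transformants of the same labelled line, grown without arginine for the same time in the dark and then sorted by flow cytometry. The 49 called higher took 2.58%, 4.02% and 3.85% of counts in the X3404VE libraries, against 0.581%, 0.352% and 0.292% in the WT libraries, which is how they were chosen. In the 4 libraries of knockout line E10 they took 2.53%, 3.62%, 4.36% and 4.24%, with 95% Wilson intervals that together span 2.38% to 4.67%. Line A2 had 0.382% (0.364% to 0.400%) and line D2 0.643% (0.566% to 0.731%). The E10 libraries were thus in the range of the X3404VE set or close to it, and A2 and D2 close to the WT set.

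The 110 called lower took 0.741%, 0.710% and 0.679% of counts in the X3404VE libraries, against 3.50%, 4.12% and 4.09% in the WT libraries, which is how they were chosen. E10 libraries had 0.529%, 0.366%, 0.851% and 0.845%, A2 had 2.39% (2.35% to 2.43%) and D2 had 1.85% (1.72% to 2.00%). For these 110, A2 and D2 thus lay between the X3404VE set and the WT set. The 736 identifiers with 2 or more RefSeq transcripts and at least 5 CPM in the WT set split the libraries as the 49 did. Their choice by WT level favours the WT libraries. These identifiers took 0.0636%, 0.0413% and 0.0428% of counts in the X3404VE libraries, against 8.63%, 8.70% and 8.63% in the WT libraries. In the E10 libraries they took 0.104%, 0.0331% and 0.0551%, and 0 of 6279 counts in the remaining library, which allows up to 0.0611% by the Wilson interval. A2 had 6.79% and D2 9.20%. The knockout libraries were shallow, with 6279 to 475103 counts, and the intervals cover counting error only. Knockout line, title set and any difference in counting cannot be told apart between E10 and the pair A2 and D2.

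**Figure D5:**
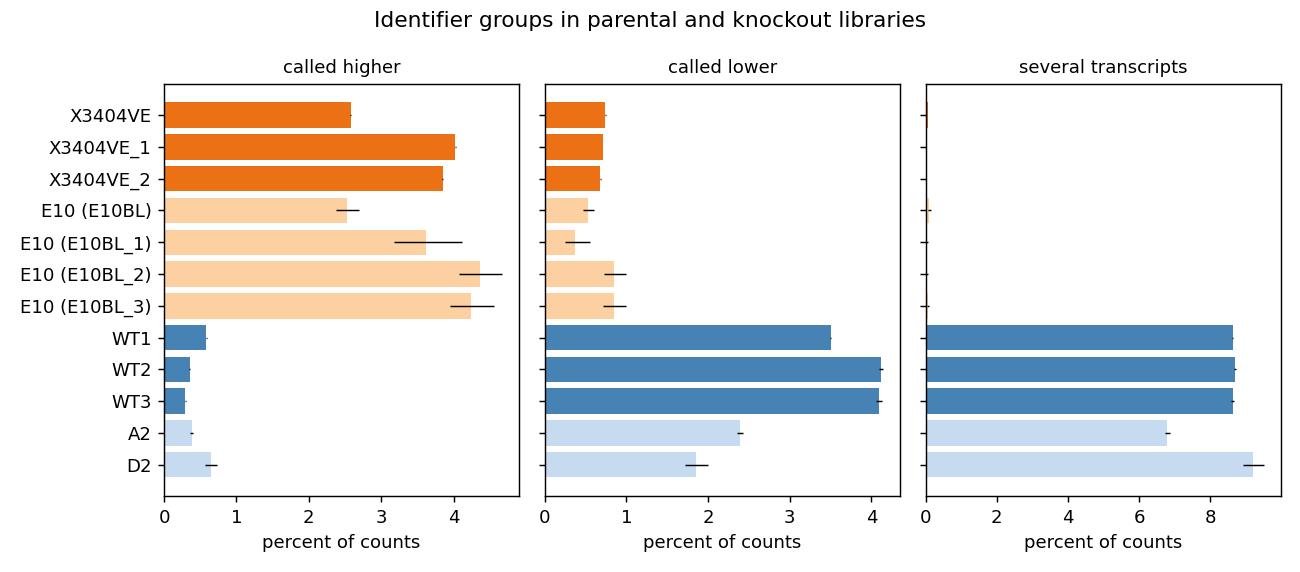
Percent of each library's counts taken by the 49 identifiers called higher, the 110 called lower, and the 736 with 2 or more RefSeq transcripts ("several transcripts"), in all 12 libraries, with 95% Wilson intervals as lines. The 736 were also chosen for at least 5 CPM in the WT set. The E10 libraries lie by the X3404VE libraries in all 3 panels, at 0.104% or less in the last. There A2 and D2 are at 6.79% and 9.20%, near the WT libraries at 8.63% to 8.70%. For the 110 called lower, A2 and D2 lie between the sets, at 2.39% and 1.85%.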

How the data were processed

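CEL-Seq libraries, read from the 3′ ends of transcripts, were made from total RNA. Per the labels' protocols, the authors mapped read 2 to the transcriptome of release 281_v5.6 with BWA MEM, dropped those with more than 1 mapping place, and counted the rest with the MapAndGo script. Near-identical copies, and genes with several transcripts, can lose reads in this step. The submitters' processing notes name edgeR without a version. The sources used here do not say whether molecular identifiers were collapsed. Raw counts per identifier were deposited, 0 columns were left unmapped, and columns were matched to samples by title.

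The members and lists were chosen with earlier results of these data known. The filter was the rule given in the opening. The test was edgeR 4.0.16 in R 4.3.3 (TMM, estimateDisp, glmQLFit, glmQLFTest, two-sided, Benjamini-Hochberg at 0.05) on counts of the 6 parental libraries, and the standard error of a log2 fold change is its size over the root of F. The script was tested on simulated data. CPM values are counts over library totals without TMM factors. List shares were compared by exact permutation over 20 arrangements, and list counts are given without a set test. The set of 73 named genes held, in each list, up to 4 tested members with the smallest p and every called member. It also held PDS1, ARG7 and AGS1, and the 2 called identifiers in each direction with the smallest p outside the lists. Values are printed for only some of these 73, and p alone did not decide which. Genes outside this set are said to be chosen after their values were seen or are untested, or complete a list or pair. A RefSeq table of genes (assembly v5.5), another build than the authors', matched 17742 identifiers by locus tag and gave transcripts per identifier, with 1531 at 2 or more. No coordinates or sequences are printed.

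Alternatives were DESeq2 1.42.0, limma-voom (limma 3.58.1), RLE factors and library totals alone, other filters, thinned counts, all 12 libraries, a replicate block and each library left out. Analyses of identifiers with 1 transcript and of X3404VE alone against the WT set were added after seeing the data. Chi-square per degree of freedom between library pairs was at least 8.79, so no pair of libraries agreed within sampling noise. The largest half-width of a Wilson interval of a list share was 0.045 percentage points. Python 3.11.15 with numpy 2.4.6, pandas 2.3.3, scipy 1.17.1 and matplotlib 3.10.9 computed shares and plots.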

Additional observations from a re-analysis of the deposited data

How the results depend on the processing

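Against 49 identifiers called higher and 110 lower, with 5 and 2 list members, library totals alone gave 11 and 34 (list members 2 and 1), a filterByExpr filter 237 and 1214 (13 and 14), no filter 271 and 1446 (14 and 13), a mean of at least 1 CPM 80 and 209 (4 list members lower), a mean of at least 10 CPM 72 lower, DESeq2 414 and 489 (28 and 8; 1364 without an adjusted p) and all 12 libraries 7 and 20 (0 and 0). The looser filters admit identifiers that were hardly counted in the X3404VE set. limma-voom called 9 list members higher. X3404VE alone against the WT set gave 97 higher and 25 and 0 list members. RLE factors, thinned counts and identifiers with 1 transcript stayed within 1.5 times. With each library left out in turn, calls ran from 0 to 618 higher and from 5 to 807 lower, and list members from 0 to 26 and from 0 to 63. Why these moved was not tested.

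The titles share the numbers 1 and 2. Deviations from the set means had correlations of -0.0348 between X3404VE_1 and WT1 and 0.0461 between X3404VE_2 and WT2. The mean of the X3404VE set includes library X3404VE, which stood apart, so these values cannot decide whether the numbers pair the samples. A fit with the replicate block gave X3404VE and WT3 a block each, so these libraries did not inform its set difference. It rested on X3404VE_1 and X3404VE_2 against WT1 and WT2, and called 785 higher and 986 lower, with 27 and 66 list members.

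Of 1378 values for 73 named genes, 1153 kept direction and side of the threshold, 59 lost and 147 gained the call, and 19 changed sign. Signs changed for ARG7 (-0.19 limma-voom, -0.95 replicate block, -0.92 without X3404VE, to 0.63 without X3404VE_1), CDKB1 (-0.0023 filterByExpr, -1.24 limma-voom, -2.55 block, -2.35 without X3404VE, -0.04 without WT3, to 0.64 without X3404VE_1), LHCA3 (-1.55 block, -1.50 without X3404VE, to 2.15 without WT1), ATP2 (-0.23 block, -0.14 without X3404VE, to 1.32 without X3404VE_1) and PDS1 (-0.18 without X3404VE, to 0.88 without WT1). With X3404VE alone against the WT set they changed for PRX1 (0.10), HYDEF (-0.11), TUB2 (0.16), ACT1 (0.11), MSD3 (-0.11) and ADH1 (0.32). None of these was called in the main comparison. The difference in a list's share of counts changed sign, over kept identifiers only, for tetrapyrrole (-0.00966 percentage points), fermentation (-0.0182) and antioxidant genes (-0.00482). With a library left out it changed sign for photosystem (-2.54 to 0.184), tetrapyrrole (-0.0515 to 0.0461), fermentation (-0.0283 to 0.0440) and antioxidant genes (-0.0201 to 0.0315). The shallowest library, WT3, sets the limit for low transcripts, since 3 of its counts stand for 2.15 CPM.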
